A study of Mus musculus with 9 samples.

Results

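Birc2, Birc3, Xiap, Traf1, Traf2, Traf3, Tnfaip3, Cyld and Tnip1 encode proteins of TNF family receptor and NF-kB signalling. The proteins attach, read or remove ubiquitin chains, or are adaptors of the TRAF family. These 9 genes were chosen by name, for their role, with earlier results of these data known. They come from the 55359 genes measured in mouse melanocyte stem cells, the skin cells from which hair pigment cells are renewed. RNA was sequenced from 9 libraries of sorted cells, 3 from mice given vehicle, 3 from mice given ionizing radiation (IR, 5 Gy) and 3 from mice given DMBA, a polycyclic hydrocarbon carcinogen. Every mouse, controls included, was Dct-H2B-GFP KI/+, so 1 allele carried the fluorescent histone reporter, which is named for the pigment gene Dct. Time after treatment, DMBA dose and route, age and any pooling of animals are left unstated by the labels, which name no separate sham-irradiated group. Nothing in the labels says that each replicate was its own animal, so the tests here weigh library-to-library variation that may be technical.

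Ubiquitin chains carry the signal in this pathway. The cellular inhibitors of apoptosis cIAP1 (Birc2) and cIAP2 (Birc3) are ubiquitin ligases that TRAF2 and TRAF3 bring to the kinase NIK, which is thereby degraded and the non-canonical NF-kB pathway held off. At the TNF receptor the same ligases build chains on RIPK1, while A20 (Tnfaip3) and CYLD limit or remove such chains and ABIN1 (Tnip1) binds them together with A20. Several of these genes are known NF-kB targets in other cells, which makes them both parts and products of the pathway.

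Because NF-kB binds a known DNA motif, the bases before the start sites of the 5 genes that were higher after IR, and of Cyld, are shown. RefSeq windows running from 250 bases before to 50 bases after a transcript start (GRCm38.p6) were found for all 9 genes, 13 windows in all. They were searched on both strands for a broad motif, GGGNNNNNCC, for a narrow one, GGGNNTTNCC, whose matches are a subset of the broad ones, and for the NF-kB consensus, also a subset of the broad one. Only the 250 bases before the start are printed, 5′ to 3′ on the strand of the gene, and capitals mark a match to the narrow motif on either strand.
Birc3, chr9:7873171-7873420, minus strand: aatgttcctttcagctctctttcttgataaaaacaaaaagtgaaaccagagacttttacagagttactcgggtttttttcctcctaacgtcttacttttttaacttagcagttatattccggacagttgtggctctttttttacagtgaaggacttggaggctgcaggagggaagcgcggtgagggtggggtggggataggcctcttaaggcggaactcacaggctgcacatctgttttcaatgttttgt
Birc2, chr9:7837058-7837307, minus strand: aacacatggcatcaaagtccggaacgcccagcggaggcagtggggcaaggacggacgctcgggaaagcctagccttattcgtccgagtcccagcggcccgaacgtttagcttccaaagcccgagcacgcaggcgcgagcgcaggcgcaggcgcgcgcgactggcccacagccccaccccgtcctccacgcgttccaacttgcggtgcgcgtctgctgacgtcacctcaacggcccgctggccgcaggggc
Traf3, chr12:111166120-111166369, plus strand: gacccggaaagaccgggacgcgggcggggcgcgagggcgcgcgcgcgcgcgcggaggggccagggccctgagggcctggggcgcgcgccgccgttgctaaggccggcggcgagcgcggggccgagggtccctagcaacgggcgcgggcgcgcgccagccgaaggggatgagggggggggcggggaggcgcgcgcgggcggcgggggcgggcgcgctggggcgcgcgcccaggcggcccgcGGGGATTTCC
Tnfaip3, chr10:19015411-19015660, minus strand: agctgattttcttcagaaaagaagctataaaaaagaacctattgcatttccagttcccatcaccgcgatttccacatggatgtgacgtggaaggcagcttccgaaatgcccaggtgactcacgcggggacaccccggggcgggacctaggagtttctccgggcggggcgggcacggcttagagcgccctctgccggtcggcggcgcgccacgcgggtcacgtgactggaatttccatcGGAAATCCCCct
Tnip1, chr11:54962941-54963190, minus strand: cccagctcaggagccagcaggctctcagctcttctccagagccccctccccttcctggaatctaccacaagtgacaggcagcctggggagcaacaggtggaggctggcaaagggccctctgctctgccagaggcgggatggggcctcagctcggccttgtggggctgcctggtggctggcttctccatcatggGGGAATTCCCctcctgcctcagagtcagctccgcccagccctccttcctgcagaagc
Cyld, chr8:88696778-88697027, plus strand: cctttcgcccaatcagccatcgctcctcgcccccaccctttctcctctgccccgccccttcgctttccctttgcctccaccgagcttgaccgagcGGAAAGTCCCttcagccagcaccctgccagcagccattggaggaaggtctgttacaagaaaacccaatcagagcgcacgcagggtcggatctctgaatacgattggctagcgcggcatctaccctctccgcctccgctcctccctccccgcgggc

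The narrow motif was found in 5 of the 13 windows, each of another gene, and in 4.79% of the 32851 windows of that length. In Traf3 it lay directly before the start, as GGGGATTTCC from position -10, and in Tnfaip3 it was read on the other strand at -12, where the printed strand has GGAAATCCCC. Tnip1 held GGGAATTCCC at -57, which matches on both strands. Cyld held GGAAAGTCCC at -155 on the printed strand, a match on the other one. In Traf2, which is not printed, GGGTGTTTCC lay at +32, in the transcribed part. The consensus was found in 4 of the 13 windows, of Traf3, Tnfaip3, Cyld and Tnip1, and in 4.51% of all windows. Birc3 held only a broad match, GGGATAGGCC at -57, and the windows of Birc2 and Traf1 held none, while 50.8% of all windows held one. Xiap, which is not printed, also held broad matches only, 9 over both strands, all in 1 window. A match describes letters only: binding was not measured, and motifs farther away were not searched.

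Total counts were between 6938406 and 8156905 per library. All 8 melanocyte markers reached 1 FPKM (counts scaled by exon length and library total) in every library, with summed levels of 1510 to 2130 FPKM. The summed FPKM of 16 basal keratinocyte markers, all above 1 FPKM throughout, was 1489 to 2270 for Vehicle, 789.75 (IR 2) to 3913.93 (IR 1) for IR and 2601 to 4039 for DMBA. That of 14 leukocyte markers was 5.72 to 11.74, 3.92 to 43.18 and 8.17 to 12.84, highest in IR 1, with Cd79b and Lyz2 at 0 in all 9. Fibroblast and endothelial markers summed to at most 1.22 and 1.07 FPKM, with Lum at 0.

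After IR, 5 of the 9 genes were higher than in Vehicle and none was lower, by edgeR's two-sided quasi-likelihood test with Benjamini-Hochberg adjustment over all 16051 genes tested, called at an adjusted p under 0.05. They were Birc3, Tnfaip3, Traf3, Tnip1 and Birc2, with rises from 1.84-fold to 5.69-fold. Of all genes tested, 0.71% were called higher, 0.0249% lower and 0.735% in either direction. All 9 genes passed the count filter. The median log2 fold change was 0.88 over the 9 genes and -0.002 over all genes tested. In bulk RNA, more cells that carry a transcript and more of it per cell cannot be told apart.

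**Figure D1:**
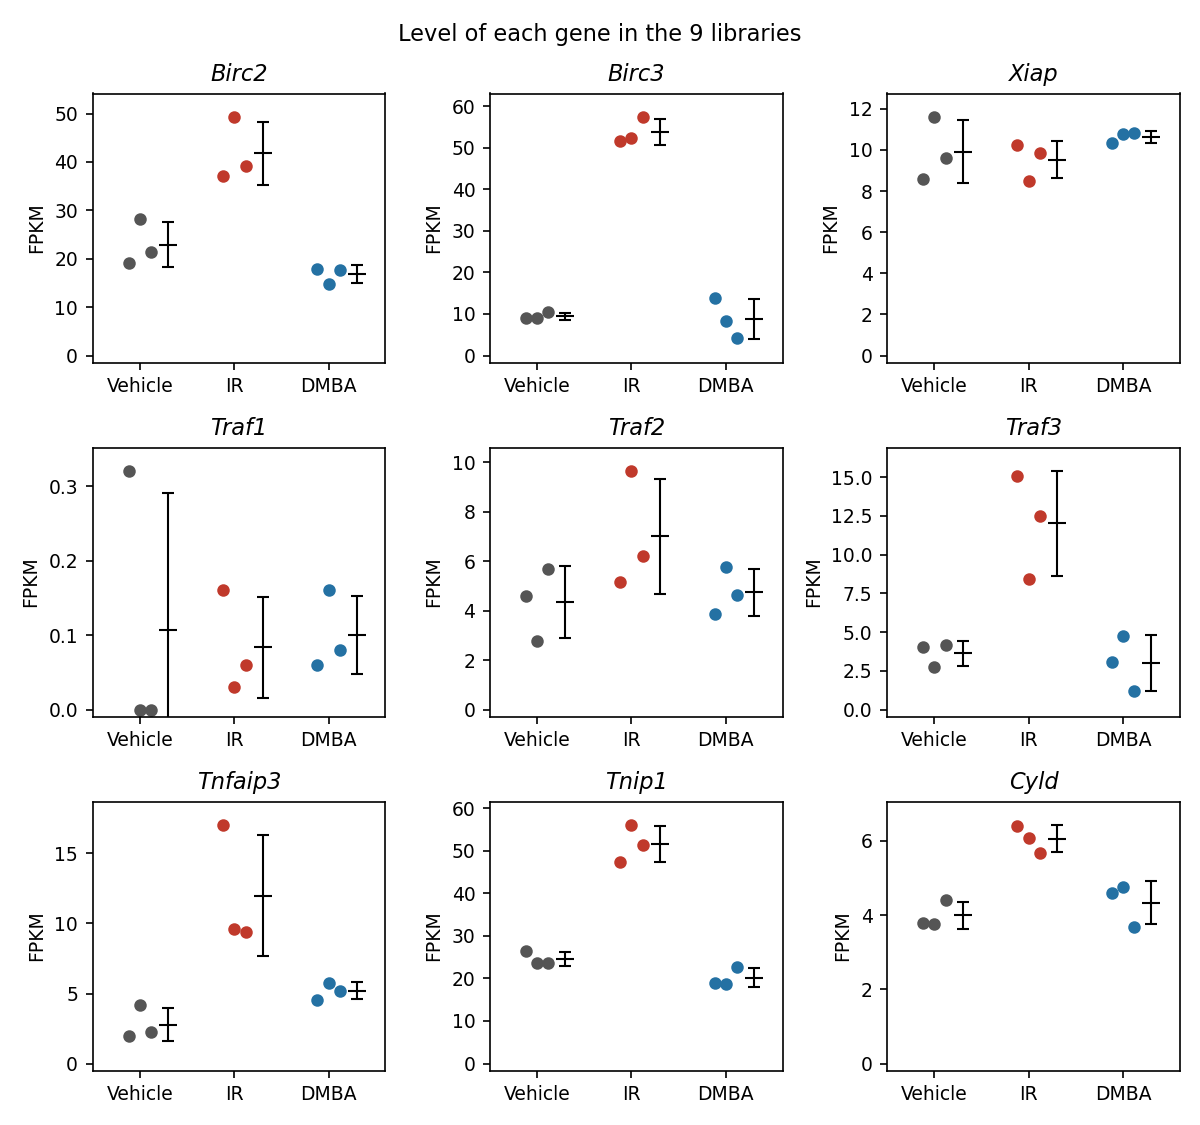
FPKM of each gene (vertical axis, own scale per panel) in the Vehicle, IR and DMBA libraries; points are libraries, and the bar with whiskers is the mean ± SD of 3, cut at the lower axis limit for Traf1. In Birc2, Birc3, Traf3, Tnfaip3, Tnip1 and Cyld all 3 IR points lie above all Vehicle and DMBA points.

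Among the cellular inhibitors of apoptosis, Birc3 had the largest change of the 9 genes. It lies on chromosome 9 at 7848700 to 7873187 on the minus strand (coordinates as deposited, build not given in the sources used here). Its level was 9.06, 8.97 and 10.47 FPKM in Vehicle 1, 2 and 3, and 51.60, 52.24 and 57.30 in IR 1, 2 and 3. The groups lay far apart, with the lowest IR library well above the highest Vehicle one. The log2 fold change was 2.51 ± 0.30 (SE), a 5.69-fold rise (edgeR, Benjamini-Hochberg adjusted p = 7.65e-05).

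Birc2, the neighbouring paralog, lies at 7818228 to 7837065 on the same strand, 11634 bases away with 0 genes between. Its level was 19.17, 28.17 and 21.44 FPKM in Vehicle and 37.15, 49.22 and 39.07 in IR libraries. The groups did not overlap, though the gap between Vehicle 2 and IR 1 was smaller than for Birc3. The rise was 1.84-fold (log2 fold change 0.88 ± 0.19; adjusted p by edgeR = 0.0343). That call was lost without Vehicle 1 (adjusted p = 0.203), Vehicle 3 (0.168), IR 2 (0.187) or IR 3 (0.087), with limma (0.115), and with only the groups compared in the fit (0.0506).

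The sequences of the paralogs overlap little. Of 5079 distinct 50-base stretches in Birc3 transcripts (GENCODE vM21), 65 also occur in Birc2 and 213 in the predicted gene Gm7019. Gm7019 itself had between 1 and 71 counts per library, while Birc3 had between 144 and 2057. How the counting treated reads that fit several genes is not given in the sources used here.

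Xiap, on the X chromosome, encodes the family member that blocks caspases directly. It had 8.60, 11.59 and 9.59 FPKM in Vehicle and 10.23, 8.51 and 9.85 in IR libraries, ranges that overlapped. Its log2 fold change was -0.05 ± 0.18 (adjusted p by edgeR = 0.989).

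The 3 inhibitors of apoptosis were then compared with each other per length of transcript. Birc3 made 32.1, 24.2 and 32.8% of the Birc2 plus Birc3 FPKM in Vehicle, and 58.1, 51.5 and 59.5% in IR libraries. In DMBA libraries it made 43.4, 35.9 and 18.9%. Birc3 was the larger of the pair in every IR library and the smaller in every other library. The mean share over 3 libraries (± SD) was 29.7% ± 4.81 for Vehicle, 56.4% ± 4.27 for IR and 32.7% ± 12.5 for DMBA.

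The difference of 26.7 percentage points between IR and Vehicle gave an exact permutation p of 0.1, two-sided, the smallest that 3 against 3 libraries allow (0.15 after Benjamini-Hochberg adjustment over 3 comparisons). IR against DMBA, 23.6 points, gave the same exact permutation p of 0.1 (adjusted 0.15), and DMBA against Vehicle, 3.05 points, gave an exact permutation p of 0.8. The 3 genes summed to 42.35 ± 6.0 FPKM for Vehicle, 105.1 ± 5.59 for IR and 36.16 ± 5.16 for DMBA. Xiap made 23.4% ± 0.342 of that sum for Vehicle, 9.12% ± 1.31 for IR and 29.9% ± 4.69 for DMBA, given as a description with no test.

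**Figure D2:**
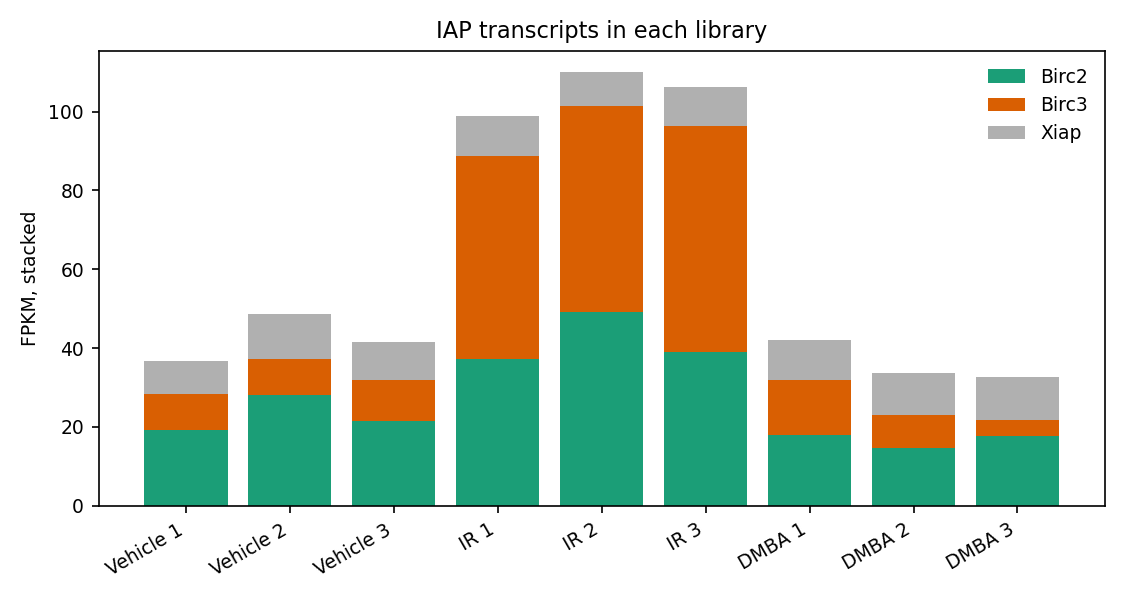
Stacked FPKM of Birc2, Birc3 and Xiap (vertical axis) in each of the 9 libraries. The IR bars reach 98.98 to 110 FPKM with Birc3 as the largest part, and the other bars end between 32.71 and 48.73 FPKM.

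Of the TRAF adaptors, Traf3 was called. TRAF3 is the adaptor that binds NIK and ties it to the TRAF2 and cIAP ligases. The gene lies on chromosome 12 at 111132804 to 111233587 in the deposited table. Its level was 4.02, 2.72 and 4.18 FPKM in Vehicle and 15.10, 8.43 and 12.50 in IR libraries. No IR library came down to the Vehicle range, and IR 2 was the lowest of the 3. The rise was 3.31-fold (log2 fold change 1.73 ± 0.38; adjusted p by edgeR = 0.0342). The call was lost without Vehicle 1 (adjusted p = 0.111), Vehicle 2 (0.205), Vehicle 3 (0.0978), IR 1 (0.0644) or IR 3 (0.109), and with limma (0.201). Its lowest log2 fold change with a library left out was 1.55.

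Traf2, on chromosome 2, encodes the adaptor that carries the cIAPs. It had 4.59, 2.78 and 5.68 FPKM in Vehicle and 5.17, 9.63 and 6.22 in IR libraries. The ranges overlapped, and IR 2, where Traf3 was lowest, had the highest Traf2. The log2 fold change was 0.70 ± 0.34 (adjusted p by edgeR = 0.603). The ratio of Traf3 to Traf2 FPKM was 0.863 ± 0.122 for Vehicle, 1.94 ± 1.02 for IR and 0.626 ± 0.321 for DMBA, with 0.875 in IR 2, inside the Vehicle range.

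Traf1, also on chromosome 2, encodes a TRAF without the ligase domain that its relatives carry, and was hardly detected. Its counts were 23, 0 and 0 for Vehicle, 11, 2 and 4 for IR and 4, 11 and 5 for DMBA. With so few counts no difference was detectable at this depth (adjusted p by edgeR = 0.994 for IR against Vehicle), and no fold change is read from it.

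Among the genes that edit chains, Tnfaip3 rose most. It encodes A20, which ends NF-kB signalling by editing ubiquitin chains, and lies on chromosome 10 at 18876658 to 18891405 in the deposited table. Its level was 1.95, 4.15 and 2.24 FPKM in Vehicle and 17.01, 9.61 and 9.37 in IR libraries. All IR libraries were above all Vehicle libraries, with IR 1 apart from its fellows. The rise was 4.32-fold (log2 fold change 2.11 ± 0.31; adjusted p by edgeR = 0.00085).

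Of the IR libraries, IR 1 also had the highest Traf3 and the most leukocyte and keratinocyte marker RNA. The 14 leukocyte markers summed to 43.18, 3.92 and 6.13 FPKM in IR 1, 2 and 3 and to 8.21, 11.74 and 5.72 in Vehicle 1, 2 and 3. Single markers did not all follow the sum. Cd74 had 27.24, 1.56 and 2.19 FPKM in IR and 5.62, 10.34 and 3.30 in Vehicle libraries. Cd79a had 2.50, 1.89 and 2.71 FPKM in IR and 0.42, 0 and 0.49 in Vehicle libraries. Ptprc had 23, 3 and 7 counts in IR and 0, 0 and 0 in Vehicle libraries. Without IR 1 the log2 fold change of Tnfaip3 was 1.80 (adjusted p by edgeR = 0.00222). With the basal keratinocyte level as a covariate it was 2.10 for Tnfaip3 (adjusted p by edgeR = 7.07e-05), 1.77 for Traf3 (0.00424) and 0.83 for Birc2 (0.0112). The part of leukocyte RNA in these levels was not tested.

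Tnip1, the gene of the A20 partner ABIN1, lies on chromosome 11 at 54801611 to 54853743 in the deposited table. It had 26.33, 23.56 and 23.53 FPKM in Vehicle and 47.33, 55.94 and 51.40 in IR libraries. The libraries within each group were close together and the groups were far apart. The rise was 2.12-fold (log2 fold change 1.09 ± 0.17; adjusted p by edgeR = 0.00145).

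Cyld, on chromosome 8 at 89423656 to 89478573 in the deposited table, encodes the deubiquitinase that trims linear and other chains. Its level was 3.79, 3.77 and 4.42 FPKM in Vehicle and 6.41, 6.08 and 5.68 in IR libraries. Every IR library was above every Vehicle library, yet the gene was not called (log2 fold change 0.61 ± 0.21; adjusted p by edgeR = 0.326). With Cyld, 6 of the 9 genes had IR libraries wholly above the Vehicle libraries, as did 7.35% of all genes tested, and 0 lay wholly below, as did 6.42%.

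**Figure D3:**
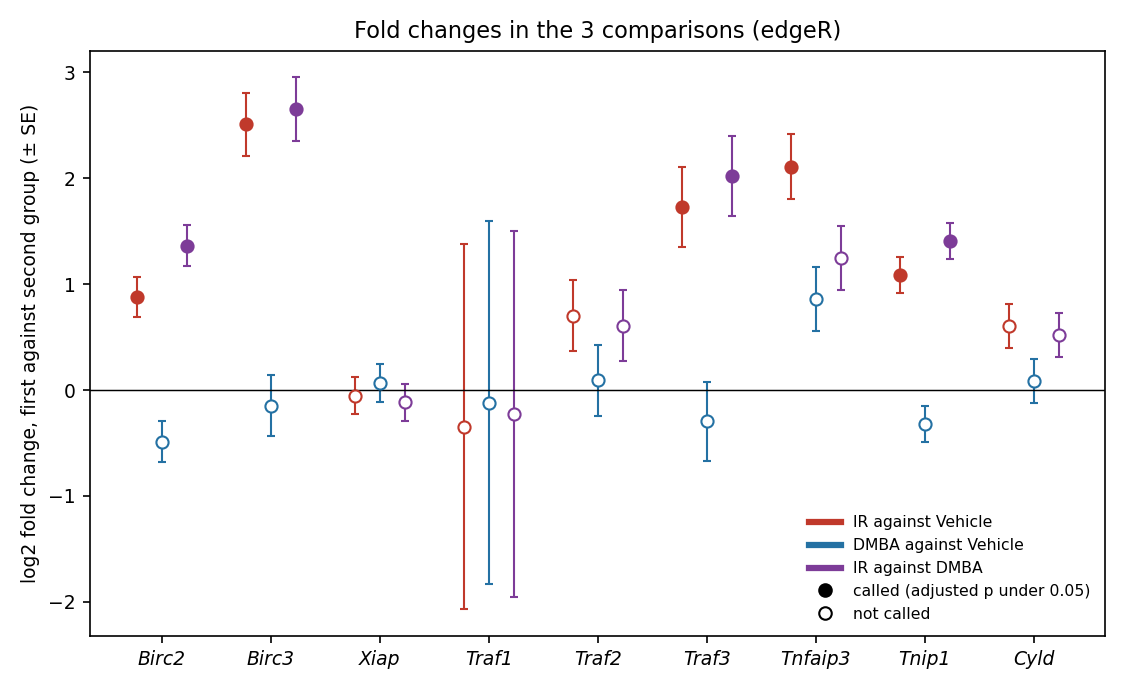
Log2 fold change ± SE from edgeR (vertical axis) of each gene in the 3 comparisons, filled where the adjusted p was under 0.05. After IR, Birc3, Tnfaip3, Traf3, Tnip1 and Birc2 are filled against Vehicle, and no gene is filled for DMBA against Vehicle.

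After DMBA, none of the 9 genes passed the test against Vehicle. EdgeR called 0 of 9, and 2 had an unadjusted p under 0.05, a cut not counted over all genes. DESeq2, limma and every other alternative run also called 0 of those they tested. Traf1 was not tested with limma or with only the groups compared. Of all genes tested, 0.0374% were called, 6 in number. In simulated data, 10.9% of 2-fold changes were called for this comparison and 27.5% for IR against Vehicle, so changes of that size could be missed. Both were simulated from the same means and spread, so these values do not rank the comparisons. The median log2 fold change of the 9 genes was -0.12 and that of all genes 0.0056. The IR and DMBA comparisons share the Vehicle libraries, so their values are given side by side and not correlated.

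Tnfaip3 and Birc2 were the genes with an unadjusted p under 0.05, in opposite directions. Tnfaip3 had 4.56, 5.78 and 5.21 FPKM in DMBA libraries, all above the Vehicle ones, with a log2 fold change of 0.86 ± 0.30 (adjusted p by edgeR = 0.646). Birc2 had 17.98, 14.70 and 17.72 FPKM, all below the Vehicle libraries, with a log2 fold change of -0.49 ± 0.19 (adjusted p by edgeR = 0.665). The Tnip1 levels of 18.90, 18.77 and 22.72 FPKM also lay below Vehicle (log2 fold change -0.32 ± 0.17; adjusted p by edgeR = 0.748). Over all genes tested, 8.28% lay wholly above and 5.31% wholly below in this comparison. The basal keratinocyte sums were also higher in every DMBA library than in any Vehicle library. This marker level and the treatment can therefore not be told apart in this comparison. The covariate fit used the mean log2(FPKM + 1) of these markers, not their sum. With it the log2 fold change was 0.62 for Tnfaip3, -0.30 for Birc2 and -0.23 for Tnip1 (adjusted p by edgeR = 0.998 for each).

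The other genes had DMBA libraries that overlapped Vehicle. Birc3 had 13.79, 8.22 and 4.14 FPKM, a wider spread than in either other group. Its DMBA mean of 8.72 ± 4.84 FPKM gave a log2 fold change of -0.15 ± 0.29 (adjusted p by edgeR = 0.964). Traf3 had 3.09, 4.74 and 1.18 FPKM (log2 fold change -0.29 ± 0.37; adjusted p by edgeR = 0.935). DMBA 3 was the lowest library for both Birc3 and Traf3. Xiap, with 10.32, 10.77 and 10.85 FPKM, Traf2, with 3.87, 5.75 and 4.61, and Cyld, with 4.59, 4.76 and 3.67, had log2 fold changes of 0.07, 0.09 and 0.09.

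Set directly against DMBA, IR libraries had higher Birc3, Birc2, Tnip1 and Traf3. These 4 of 9 genes were called higher and none lower, where 0.878% of all genes were called higher, 0.0997% lower and 0.978% in either direction. Birc3 was 6.30-fold higher (log2 fold change 2.66 ± 0.30; adjusted p by edgeR = 3.22e-05) and Traf3 was 4.06-fold higher (2.02 ± 0.38; adjusted p by edgeR = 0.00865). Tnip1 was 2.65-fold higher (1.41 ± 0.17; adjusted p by edgeR = 7.89e-05) and Birc2 2.57-fold higher (1.36 ± 0.19; adjusted p by edgeR = 0.000496).

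Tnfaip3 missed the threshold here, with a log2 fold change of 1.25 ± 0.30 (adjusted p by edgeR = 0.056), although its IR and DMBA libraries did not overlap. It was called in 6 of 16 alternatives, including those without Vehicle 1 (adjusted p = 0.044) and without Vehicle 2 (0.0198), and its adjusted p ranged from 0.000488 to 0.272. Cyld was higher in every IR library than in any DMBA library and was not called (log2 fold change 0.52 ± 0.21; adjusted p by edgeR = 0.447). In all, 6 genes lay wholly above DMBA, where 6.92% of all genes did, and Xiap lay wholly below, where 7.85% did. The Xiap difference was small (log2 fold change -0.12; adjusted p by edgeR = 0.966). Time and dose may differ between these treatments, so the comparison may not be matched.

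The order of the 9 genes by FPKM was not the same in the 3 groups. In Vehicle it ran Tnip1, Birc2, Xiap, Birc3, Traf2, Cyld, Traf3, Tnfaip3 and Traf1. Neighbours whose libraries did not overlap were Birc2 and Xiap, Birc3 and Traf2, and Tnfaip3 and Traf1, and the other neighbours overlapped. In IR libraries Birc3 moved to the first place, 53.7 ± 3.12 FPKM, overlapping Tnip1 at 51.6 ± 4.31, which in turn overlapped Birc2 at 41.8 ± 6.49. Traf3 and Tnfaip3 followed at 12.01 ± 3.36 and 11.997 ± 4.34 FPKM, clear of Birc2, and then came Xiap, Traf2, Cyld and, clear of Cyld, Traf1. In DMBA the order was that of Vehicle except that Tnfaip3, at 5.18 ± 0.610 FPKM, stood after Birc3 and overlapped its neighbours Birc3 and Traf2. Tnip1 and Birc2, Birc2 and Xiap, and Traf3 and Traf1 were the DMBA neighbours whose libraries did not overlap.

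The genes differed in how alike their profiles were over the 9 libraries. Likeness was measured, as a description, over 9 libraries that share treatments and depth. It is the root mean square difference of log2 CPM after each gene was centred on its own mean. CPM here are counts scaled to the normalized library total, with a small count added. Birc2 and Tnip1 were the closest pair of the 9 genes, at 0.21. Birc3 and Traf3 differed by 0.53, and the paralogs Birc2 and Birc3 by 0.87. Xiap and Cyld, called in no comparison, differed by 0.36. The measure takes in the size of change as well as the shape of a profile. The root mean square of the gene's own centred profile was 0.592 for Birc2, 0.607 for Tnip1, 1.335 for Birc3 and 1.099 for Traf3. Small differences are therefore easier to reach for genes that changed little, and likeness of shape alone was not tested. The nearest genes were sought among 7140 tested genes with a mean of at least 5 FPKM. Genes without a symbol, or with one starting with Gm and a digit or ending in Rik, were left out. Relb was nearest to Birc3 (0.37), followed by Csf1 (0.44) and Snhg15 (0.48). Pip5k1b (0.16), Optn (0.19) and Gem (0.20) were nearest to Birc2, and Susd6 (0.17), Arhgef40 (0.17) and Lpin1 (0.18) to Tnip1. For Traf3 they were Snhg15 (0.42), Casp4 (0.47) and Cyba (0.48), and for Tnfaip3 they were Map3k20 (0.35), Plk2 (0.41) and Kank3 (0.45).

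The rest of the pathway was read from 11 lists with 98 symbols, of which 97 were in the table and 75 were tested. After IR, 5 of the 75 were called higher than Vehicle and 0 lower, where 0.71% and 0.0249% of all genes tested were. The median log2 fold change of the 75 was 0.22. Of the receptor complex around RIPK1, 0 of 12 were called, and of the IKK complex and canonical subunits 0 of 6. By edgeR, 1 and 3 of these had an unadjusted p under 0.05, led by Map3k7 (log2 fold change 0.61; adjusted p = 0.197) and Nfkb1 (0.50; 0.238). The share of all genes at that unadjusted cut was not counted. Over all lists, DESeq2, run on all 97 without the filter, called 8 genes higher, and limma 5 of the 71 it tested. Neither called a gene lower, and both called 0 in these lists of the receptor complex and the IKK complex.

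Of 5 non-canonical pathway genes, the subunit genes Relb and Nfkb2 were called. Relb had 7.70, 6.79 and 7.75 FPKM in Vehicle and 49.87, 49.40 and 49.55 in IR libraries (log2 fold change 2.75 ± 0.19; adjusted p by edgeR = 1.27e-07). Nfkb2 had 34.26, 38.55 and 35.83 FPKM in Vehicle and 104.35, 107.08 and 114.28 in IR libraries (log2 fold change 1.59 ± 0.16; adjusted p by edgeR = 9.26e-06). Map3k14, the gene of NIK, which TRAF3 and the cIAPs control as a protein, had 7.67, 7.25 and 9.63 FPKM in Vehicle and 6.62, 8.66 and 6.33 in IR libraries. It was looked up outside the naming rule, and its ranges overlapped (log2 fold change -0.17; adjusted p by edgeR = 0.974).

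Of 13 other brakes on NF-kB, 2 were called, both inhibitors that hold NF-kB in the cytoplasm. Nfkbia rose 2.86-fold to 254.1 ± 25.3 FPKM (adjusted p by edgeR = 2.27e-05) and Nfkbie 4.67-fold to 59.31 ± 2.49 FPKM (adjusted p by edgeR = 9.79e-05). Of 8 partners of A20 and CYLD, 0 were called, with the ubiquitin-binding adaptor gene Optn closest (log2 fold change 0.71; adjusted p by edgeR = 0.091; called by DESeq2, adjusted p = 0.0104). Of 6 other TRAF genes, 4 antagonists of the inhibitors of apoptosis and 8 genes of caspase-8 and necroptosis, 0 were called. In the TRAF and antagonist lists the smallest p belonged to Traf4 (log2 fold change 0.66; adjusted p by edgeR = 0.505) and Xaf1 (1.39; 0.225). DESeq2 called 1 gene and limma 0 over these 3 lists. In these lists 1, 1 and 1 genes were higher and 0, 1 and 0 lower at an unadjusted edgeR p under 0.05. All genes were not counted at this cut. Of 7 other inhibitor of apoptosis genes 2 were tested and 0 called, and Birc6 had a log2 fold change of 0.04 (adjusted p by edgeR = 0.993).

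Most ligands of these receptors were at very low levels. An exception was Tnfsf12, looked up outside the naming rule, with 6.42 ± 1.26 FPKM in Vehicle and 5.69 ± 3.58 in IR libraries. Of 10 TNF family ligands 3 had enough counts to be tested and 0 were called, with Tnfsf13b at 0.16 ± 0.135 FPKM in IR and 0.04 ± 0.0693 in Vehicle libraries. Of 10 receptors tested, Eda2r, the receptor for ectodysplasin A2, was called. It had 0.08, 0 and 0.19 FPKM in Vehicle and 7.55, 6.62 and 6.18 in IR libraries (adjusted p by edgeR = 0.000125).

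**Figure D4:**
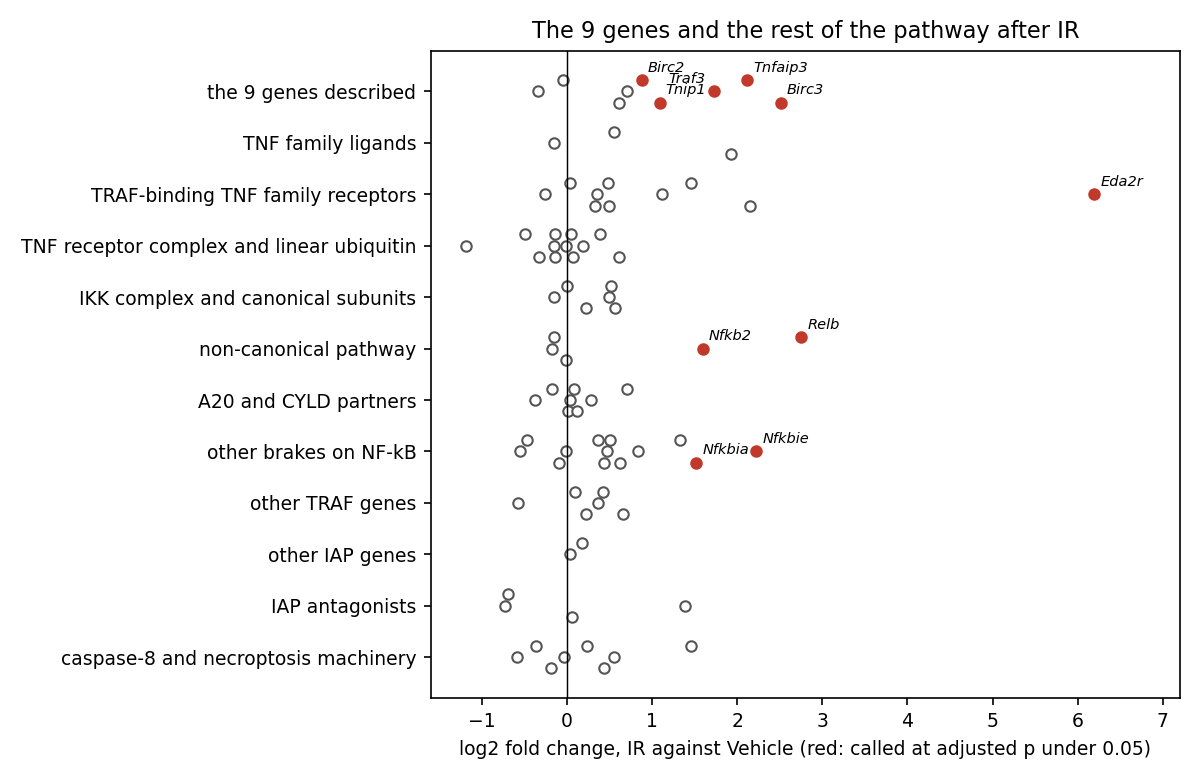
Log2 fold change of IR against Vehicle from edgeR (horizontal axis) for the 9 genes and for the tested genes of the 11 lists (rows), 1 point per gene, red and named where the adjusted p was under 0.05. Red points are 5 of the 9 genes and 5 of the 75 others.

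For DMBA against Vehicle, edgeR called 0 of the 75 list genes and 0.0374% of all genes tested. Limma called 0 of the 71 it tested, and DESeq2, run on all 97 without the filter, called 1. The median log2 fold change of the 75 was -0.04. At an unadjusted edgeR p under 0.05, 4 of the 75 were above and 7 below Vehicle, a cut not counted over all genes. Among the lower ones, with adjusted p from 0.651 to 0.66, were Ripk1 (-0.44), Ikbkb (-0.52), Chuk (-0.64), Bcl3 (-0.60) and Cflar (-0.46), all on the log2 scale. Pdlim2 had the smallest p, with a log2 fold change of 2.14 ± 0.53 (adjusted p by edgeR = 0.423), and was the gene called by DESeq2 (adjusted p = 0.04) and with no filter (0.00257). Tnfsf13b (log2 fold change 3.72), Ngfr (1.97), Traf6 (0.49), Birc6 (-0.17) and Diablo (0.41) were not called either.

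For IR against DMBA, edgeR called 8 of the 75 higher and 0 lower, where 0.878% and 0.0997% of all genes were. The median log2 fold change of the 75 was 0.21. DESeq2, run on all 97 without the filter, called 10 higher and 1 lower. Limma called 6 of the 71 it tested higher and 0 lower. At an unadjusted edgeR p under 0.05, 15 of the 75 were higher and 4 lower, a cut not counted over all genes. Relb (log2 fold change 3.06; adjusted p by edgeR = 2.21e-08), Nfkb2 (1.56; 9.23e-06), Nfkbie (2.68; 1.25e-05), Nfkbia (1.23; 0.000214) and Eda2r were higher here as well. Optn, whose profile was among the nearest to that of Birc2, was 2.09-fold higher (adjusted p by edgeR = 0.00314). Rela (log2 fold change 0.87; adjusted p by edgeR = 0.0194) and Nfkb1 (0.66; 0.0442) were also called. The Rela call was lost without IR 2 (adjusted p = 0.0982) or DMBA 3 (0.0871), and the Nfkb1 call without any library but IR 1 (adjusted p from 0.0525 to 0.185). With limma, with only the groups compared and with the keratinocyte covariate, both calls were lost as well (adjusted p = 0.082, 0.0521 and 0.0654 for Rela and 0.165, 0.0784 and 0.0509 for Nfkb1). Map3k7 (0.37), Traf4 (0.92), Birc6 (0.21), Septin4 (-1.07) and Tnfsf13b (-1.80) had the smallest p of their lists and were not called by edgeR. Septin4 was the gene that DESeq2 called lower (adjusted p = 0.0421), and edgeR called it with no filter (0.036) and without DMBA 2 (0.0371). Traf4 was called without IR 1 (0.0374).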

How the data were processed

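Per the labels' protocols, RNA was purified on columns and stranded libraries were prepared with a SMARTer kit. The submitters' processing notes name HTSeq 0.6.1, HISAT2 2.0.1, cutadapt 1.9.1 and bcl2fastq 2.17.1.14, without roles. Build, annotation and strand use in counting were not given in the sources used here. The deposited table holds whole-number counts per gene, not normalized, and the deposited FPKM, which the authors scaled by exonic length and library total: recomputing FPKM from the counts gave 100% of values within 0.0051. Deposited coordinates equalled GENCODE vM21 for 1494 of 52083 shared identifiers (2.87%), so they are not mixed with the GRCm38.p6 promoters. Genes without a symbol (1438) took 0.121 to 0.175% of counts and stayed in as annotated genes, and 0 further per-sample columns were left aside.

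Groups and numbers came from the titles. Libraries of a group differed by more than sampling noise (chi-square per degree of freedom 14.9 to 36.3). Tests on counts used edgeR 4.0.16 (R 4.3.3) with filterByExpr, TMM, 1 mean per group over all 9 libraries, quasi-likelihood test, Benjamini-Hochberg over 16051 genes. The SE is the log2 fold change divided by the square root of F, and the biological coefficient of variation was 49%. The test was checked on simulated counts with 200 changed genes. All comparisons were simulated from the same means and spread, so the values do not rank them. Of 2-fold changes, 27.5% were called for IR against Vehicle, 10.9% for DMBA against Vehicle and 27.4% for IR against DMBA. Of 4-fold changes 59.1, 56.8 and 53.1% were called, and of 8-fold ones 83.1, 77.5 and 77.8%, in the same order. False calls numbered 6, 0 and 7. Alternatives were no filter, DESeq2 size factors in edgeR, DESeq2 1.42.0, limma 3.58.1 on log2(FPKM + 1) where FPKM reached 1 in 3 libraries, only the groups compared, the replicate number as a block, a basal keratinocyte covariate, and each of 9 libraries left out. The keratinocyte covariate was the mean log2(FPKM + 1) of the 16 basal keratinocyte markers. Shares were compared by exact permutation. Python 3.11.15, pandas 2.3.3, numpy 2.4.6, scipy 1.17.1 and matplotlib 3.10.9 were used.

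The 9 genes, the 11 lists and the naming rule were chosen with earlier results of these data known. The rule names, per list and comparison, up to 3 called genes with the smallest p, or otherwise the 1 with the smallest p, and the 3 nearest profiles of each called gene. A gene that the rule names in 1 list is not reported here.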

Additional observations from a re-analysis of the deposited data

How the results depend on the processing

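With 3 libraries a group, calls near the threshold were unstable. For IR against Vehicle, the calls of Birc3 (adjusted p up to 0.0104), Tnfaip3 (up to 0.0356) and Tnip1 (up to 0.0155) held in all 16 alternatives, that of Birc2 in 10 and that of Traf3 in 9. Called members numbered 5, fell to 3 with limma, and were 3 to 5 with a library left out. For IR against DMBA, the calls of Birc2, Birc3 and Tnip1 held in all 16 and that of Traf3 in 15, lost with limma (adjusted p = 0.0963). Of 426 values of the 9 genes under alternatives, 388 kept direction and side of the threshold, 14 lost the call, 6 gained it and 18 changed sign. The cause was not tested.

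Over all genes, IR against Vehicle gave 118 calls, 236 with no filter, 260 with DESeq2 and 76 to 131 with a library left out. DMBA against Vehicle gave 6, 159 with no filter, 51 with DESeq2, 1 with limma, 44 with only the groups compared, and 2 to 25 with a library left out. IR against DMBA gave 157, 371 with no filter, 320 with DESeq2, 89 with limma, and 96 to 421 with a library left out.

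Same-numbered libraries did not deviate together (correlations of -0.114 to 0.047), so the number was used as a replicate block only as an alternative. The block gave 107, 5 and 142 calls in the 3 comparisons, left 4 members called for IR against Vehicle, and gave Traf3 an adjusted p of 0.0642 there. The call of Nfkb1 for IR against DMBA was lost with the block (adjusted p = 0.0796).

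Traf1 changed sign with the block for IR (log2 fold change 0.83) and for DMBA (1.79) against Vehicle, and with the keratinocyte covariate for IR against DMBA (0.52). It had no value with limma or with only the groups compared, which removed it by their filters. Leaving out a library in turn gave Traf1 log2 fold changes of -1.13 to 5.50, -0.71 to 5.72 and -0.996 to 0.30 in the 3 comparisons. For IR against Vehicle the range was -0.14 to 0.0759 for Xiap and -0.0327 to 0.12 for Birc6. For DMBA against Vehicle it was -0.65 to 0.19 for Birc3, -0.0312 to 0.18 for Xiap, -0.16 to 0.33 for Traf2, -0.81 to 0.0813 for Traf3 and -0.0034 to 0.20 for Cyld. The Birc3 share differed by -2.28 to 9.95 points for DMBA against Vehicle, negative without DMBA 1, by 23.9 to 29.1 for IR against Vehicle and by 16.7 to 29.0 for IR against DMBA. From raw counts the differences were 27.0, 3.07 and 23.9 points, in the order IR against Vehicle, DMBA against Vehicle and IR against DMBA.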
